A study of Homo sapiens with 9 samples.

Results

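The feedback genes of the ERK pathway were described through 10 members: the phosphatase genes DUSP1, DUSP4, DUSP5, DUSP6 and DUSP7, the Sprouty genes SPRY1, SPRY2 and SPRY4, and the Sprouty-related genes SPRED1 and SPRED2. They were found by their platform gene symbol, which named 22 probe sets (groups of array probes that read 1 transcript region) among the 54675 on the array. They are 10 of 19775 genes with a named probe set. The cells were HuCCT1, a human line grown from a bile duct cancer (cholangiocarcinoma). Of 9 single-colour arrays, 4 held cells transfected with an empty vector and 5 held cells transfected with a vector for YAPS127A, the constitutively active S127A mutant of the transcriptional co-activator YAP1. All cells were kept in medium with fetal bovine serum. The labels give no time after transfection, no promoter for the vector, and no statement that samples of a group came from separate cultures, so the p-values cover the spread among these 9 samples alone, and that spread may be technical.

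Growth factor receptors signal through RAS and the kinases RAF and MEK to ERK, and ERK in turn switches on genes whose products damp the same route. DUSP proteins remove the activating phosphates of MAP kinases. DUSP6 and DUSP7 act on ERK in the cytoplasm and DUSP5 acts on ERK in the nucleus, while DUSP1 and DUSP4 are nuclear and also act on the stress kinases p38 and JNK. Sprouty and SPRED proteins act higher up, between the receptors and RAF. In many carcinoma cells the transcript levels of DUSP6, SPRY2 and SPRY4 are used as readouts of ERK activity.

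The arrays had medians of 5.95 to 5.97 on the log2 scale of the deposited signal. The markers of bile duct epithelium KRT7, KRT19, KRT8, KRT18, EPCAM and SOX9 were bright (per-array list means of 13.46 to 13.53 with the empty vector and 13.46 to 13.55 with YAPS127A). The list means of leukocyte, endothelial and hepatocyte markers lay between 4.53 and 5.62 over all arrays, and that of fibroblast markers lay between 5.79 and 5.96 with the empty vector and between 5.99 and 6.12 with YAPS127A. Of the 6 fibroblast markers 1 rose (LUM, from 7.27 to 8.72), 1 fell (COL1A1, from 8.21 to 7.51), and COL1A2, COL3A1 and DCN stayed between 4.44 and 5.03 on average. Of the 6 bile duct markers KRT8 rose and SOX9 fell, of the 4 leukocyte markers CD14 fell (from 6.19 to 5.75), and the 3 endothelial and 3 hepatocyte markers did not pass. The part of these markers in the results was not tested. The targeted gene YAP1 had a mean signal of 12.56 in the empty vector arrays (SD 0.06, n = 4) and of 12.71 in the YAPS127A arrays (SD 0.07, n = 5) at its brightest probe set, which did not pass (adjusted p = 0.121). The sources do not say whether its probe sets can read the construct.

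The feedback genes changed in both directions, and by less than 2-fold. With limma and an adjusted p threshold of 0.05, 4 of the 22 probe sets were higher and 3 were lower with YAPS127A, beside 11.9% higher and 12.0% lower among all 54613 tested. The groups did not overlap at 7 of the 22, beside 22.3% of all probe sets. At the brightest probe set of each gene they did not overlap for 5 of 10 members. This stood beside 5599 of all 19775 genes and 5022 of the 12221 genes brighter than the median. Of all probe sets 23.9% were called, and of those with a mean signal above the median, as 20 of the 22 had, 38.5% were called. Taking each gene at its brightest probe set, 3 of 10 members rose (DUSP1, SPRY2 and DUSP5), 2 fell (SPRY4 and SPRED1) and 5 did not pass, beside 14.5% higher and 14.2% lower among all 19775 genes. The share of genes called was 28.7% over all genes and 40.7% over genes brighter than the median, so 5 of 10 members is a share near that of other bright genes. A difference of 2-fold or more was seen in 619 of all 19775 genes and in 479 of the 12221 genes brighter than the median. Most genes, like the members, therefore differed by less than 2-fold. The median difference of the members was +0.07, against 0.00 over all genes, and their median absolute difference was 0.23, against 0.13 over all genes and 0.19 over bright genes.

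**Figure D1:**
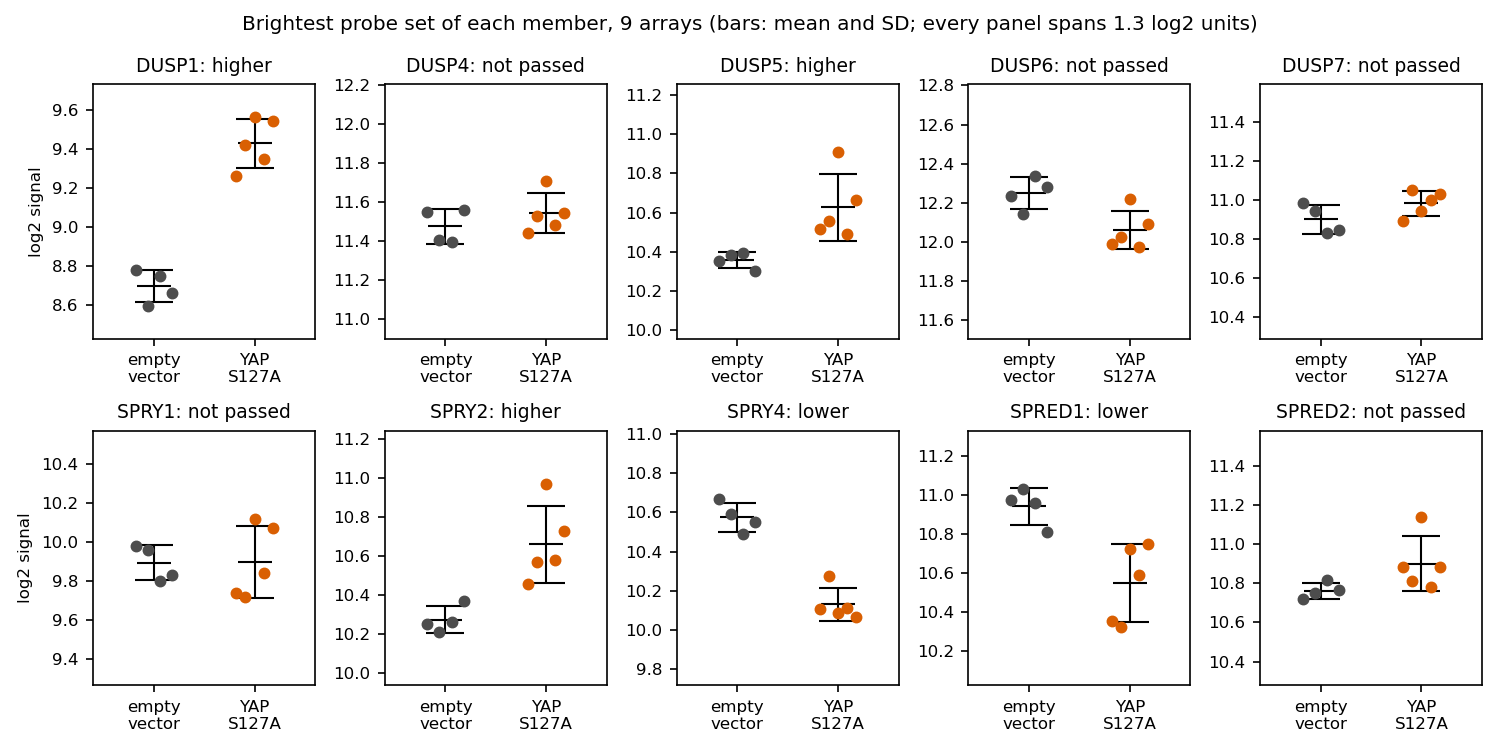
The log2 signal of the brightest probe set of each member is plotted for the 4 empty vector arrays and the 5 YAPS127A arrays, with the mean and SD as bars and a vertical span that is equal in all panels. The groups are apart for DUSP1, DUSP5, SPRY2, SPRY4 and SPRED1 and overlap for DUSP4, DUSP6, DUSP7, SPRY1 and SPRED2.

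The sequences before the transcript start are shown for DUSP1, SPRY4 and SPRED1, the 3 members whose call held in every alternative that was run. Each is the 250 bases before a start, from the RefSeq table of GRCh38.p14, read 5′ to 3′ along the gene. DUSP1 lies at chr5:172771196-172771445 on the minus strand, SPRY4 at chr5:142324248-142324497 on the minus strand and SPRED1 at chr15:38252586-38252835 on the plus strand. Capitals mark matches, on either strand, to TGACG, the core of the cAMP response element, or to the other motifs named after the sequences.
DUSP1: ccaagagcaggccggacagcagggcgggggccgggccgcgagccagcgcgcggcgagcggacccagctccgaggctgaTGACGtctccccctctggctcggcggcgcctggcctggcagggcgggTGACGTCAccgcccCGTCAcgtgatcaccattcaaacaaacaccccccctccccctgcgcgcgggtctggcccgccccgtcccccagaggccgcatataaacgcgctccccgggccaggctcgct
SPRY4: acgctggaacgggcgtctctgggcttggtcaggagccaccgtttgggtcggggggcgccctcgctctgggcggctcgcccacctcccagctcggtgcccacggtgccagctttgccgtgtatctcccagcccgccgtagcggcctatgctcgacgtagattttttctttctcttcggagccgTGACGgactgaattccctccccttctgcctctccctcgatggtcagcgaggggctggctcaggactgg
SPRED1: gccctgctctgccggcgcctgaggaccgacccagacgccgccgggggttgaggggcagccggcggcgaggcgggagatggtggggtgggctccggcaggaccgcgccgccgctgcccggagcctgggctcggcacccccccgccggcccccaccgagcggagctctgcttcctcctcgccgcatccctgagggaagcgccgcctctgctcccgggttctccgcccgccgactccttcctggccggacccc

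The DUSP1 window holds 1 full cAMP response element, TGACGTCA, at 125 to 118 bases before the start. The window matches TGACG on either strand at 4 places, 2 of which overlap within that element. Among the 35116 windows of the table, 1.65% hold TGACGTCA and 21.2% hold TGACG. Of the 12 member windows, 3 hold TGACG. SPRY4 has a single TGACG at 68 to 64 bases before the start, a window of SPRY2 has one at 190 to 186, and SPRED1 has no match to any motif searched. The search covered 8 of the 10 members, in 12 windows. The promoter table has no entry for DUSP5, and DUSP4, on chromosome 8, was left out of the search. None of the 12 windows holds GGAATG, the motif bound by TEAD factors (11.9% of all windows), TGANTCA, the AP-1 motif (6.57%), or a CArG box, the motif of serum response factor (1.16%). The ETS motif, searched only in the form CCGGAA and present so in 14.5% of all windows, was found before 1 start each of SPRY1 and SPRY2. A match in these windows describes the letters and is not a measured binding site.

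DUSP1, an immediate-early phosphatase gene that is also induced by stress, rose most among the members. With the empty vector its brightest probe set (201041_s_at) had log2 signals of 8.78, 8.60, 8.75 and 8.67. With YAPS127A the signals were 9.26, 9.42, 9.56, 9.35 and 9.55. Every YAPS127A array lay above every empty vector array, with a gap of 0.48 between the groups. The difference was +0.73 (SE 0.08, adjusted p = 3.52e-05), or 1.66-fold, and the exact 2-sided permutation test gave p = 0.00794, the smallest that 126 splits can give. A further DUSP1 probe set (226578_s_at) rose by 0.55 (SE 0.13, adjusted p = 0.00932) and also did not overlap between groups. The probe set 201044_x_at, whose suffix marks probes that may cross-hybridise, differed by +0.20 (adjusted p = 0.0743). The mean of the 3 probe sets was higher by 0.49 (adjusted p = 0.000127, in a separate fit of gene means adjusted over 19775 genes).

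DUSP5, the nuclear phosphatase of ERK, was the other DUSP member called higher, at a single probe set. Its signals were 10.35, 10.38, 10.39 and 10.30 with the empty vector and 10.52, 10.56, 10.91, 10.49 and 10.66 with YAPS127A. The groups did not overlap, but 1 array, YAPS127A replicate 3, stood above the other 4 of its group. The difference was +0.27 (SE 0.09, adjusted p = 0.0413), or 1.21-fold. Without that array it was +0.20 and only just passed (adjusted p = 0.0479). The call was lost without any of the 4 empty vector arrays or without YAPS127A replicate 5, at differences of 0.25 to 0.28 (adjusted p = 0.0665 to 0.105). It was also lost with the actin 3′ to 5′ gap, a measure of RNA integrity, as a covariate (+0.27, adjusted p = 0.0613).

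DUSP6, the cytoplasmic phosphatase that is among the most direct ERK readouts, lay lower at all 3 of its probe sets without passing at any. At the brightest (208892_s_at) the signals were 12.24, 12.14, 12.34 and 12.28 with the empty vector and 11.99, 12.03, 12.22, 11.97 and 12.09 with YAPS127A. Only YAPS127A replicate 3 reached into the range of the empty vector arrays. The differences were -0.19 (SE 0.07, adjusted p = 0.078), -0.22 at 208891_at (SE 0.11, adjusted p = 0.159) and -0.31 at 208893_s_at (SE 0.11, adjusted p = 0.0548). The mean of the 3 probe sets fell by 0.24 and passed (SE 0.05, adjusted p = 0.00318). That p-value comes from a separate fit of gene means, adjusted over 19775 genes and not over 54613 probe sets. Without YAPS127A replicate 3 the brightest probe set was also called, at -0.23 (adjusted p = 0.0303).

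DUSP4 and DUSP7 did not pass at any probe set. The 3 DUSP4 probe sets differed by +0.07, +0.14 and +0.14 (adjusted p = 0.598, 0.342 and 0.133). At the brightest, the 95% interval of the difference ran from -0.09 to 0.22. DUSP7 differed by +0.08 (interval -0.06 to 0.22, adjusted p = 0.413) and +0.10 (adjusted p = 0.422) at its probe sets. For both genes the groups overlapped at every probe set.

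The Sprouty genes, which encode inhibitors that receptor signalling itself induces, split. SPRY4 was the member with the lowest adjusted p among those that fell at their brightest probe set. Its probe set read 10.67, 10.59, 10.49 and 10.55 with the empty vector and 10.11, 10.27, 10.08, 10.11 and 10.07 with YAPS127A. All YAPS127A arrays were below all empty vector arrays, by a gap of 0.22. The difference was -0.45 (SE 0.07, adjusted p = 0.000411), or 1.36-fold lower, with an exact permutation p = 0.00794.

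SPRY2, which is on chromosome 13, was called higher. Its signals were 10.25, 10.21, 10.26 and 10.37 with the empty vector and 10.46, 10.57, 10.97, 10.58 and 10.73 with YAPS127A. The groups were apart by 0.08, and YAPS127A replicate 3 was again the highest. The difference was +0.39 (SE 0.10, adjusted p = 0.0119), or 1.31-fold. SPRY1 did not differ beyond its spread at either probe set (0.00, interval -0.20 to 0.21, adjusted p = 0.982, and -0.01, adjusted p = 0.962). Its brightest probe set read 9.98, 9.96, 9.80 and 9.83 with the empty vector and 9.74, 9.72, 10.12, 9.84 and 10.07 with YAPS127A, where the 5 arrays enclosed the whole empty vector range. Its other probe set was near 4.9 in both groups, below the median of all probe sets.

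SPRED1, which holds neurofibromin at the membrane and so restrains RAS, fell at 2 of 3 probe sets. The brightest (226837_at) read 10.97, 11.03, 10.96 and 10.81 with the empty vector and 10.36, 10.32, 10.72, 10.59 and 10.75 with YAPS127A. The groups were apart by only 0.06, because the YAPS127A arrays spread more widely (SD 0.20 against 0.09). The difference was -0.39 (SE 0.10, adjusted p = 0.0129), or 1.31-fold lower. At 235074_at the fall was 1.40-fold, at a difference of -0.48 (SE 0.08, adjusted p = 0.000956), and here the gap between the groups was 0.23. The probe set 244439_at differed by -0.28 (SE 0.16, adjusted p = 0.265). SPRED2, its paralogue, did not pass at any of 3 probe sets (+0.14, +0.20 and -0.02, adjusted p = 0.247, 0.195 and 0.878), and the interval at the brightest was -0.03 to 0.31.

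**Figure D2:**
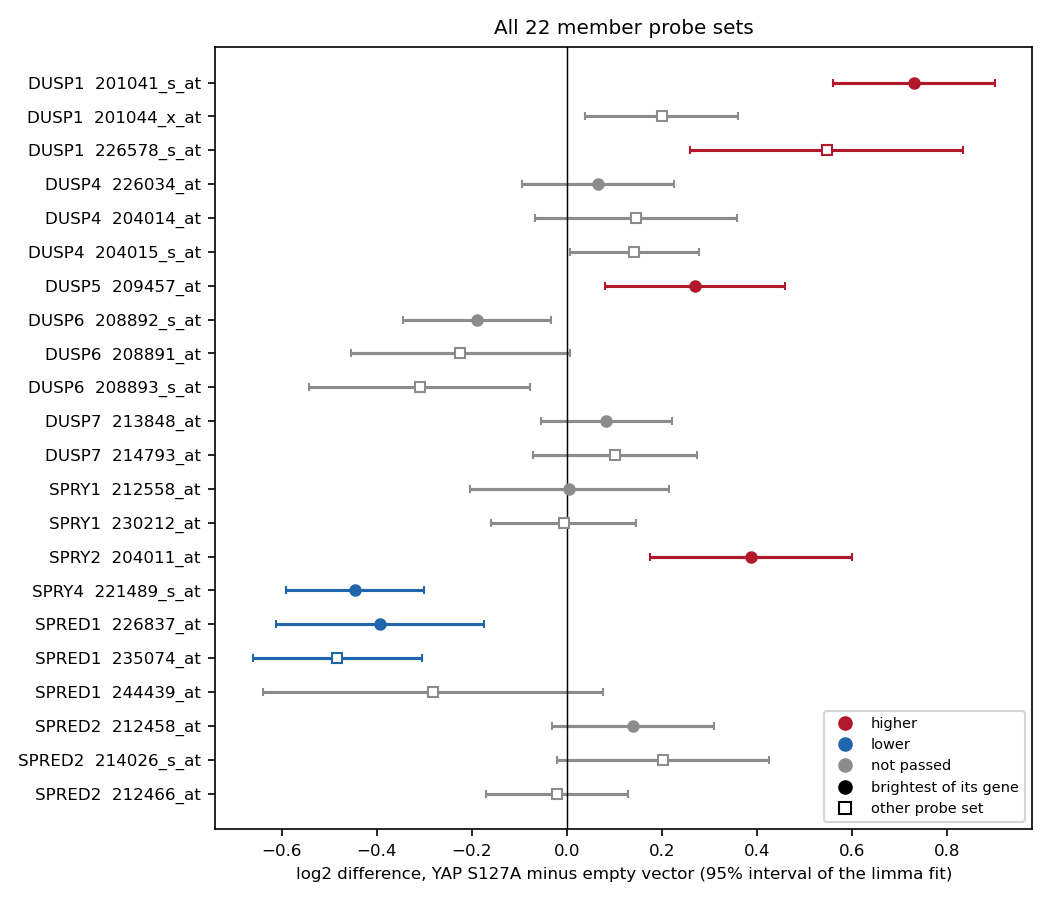
The log2 difference (YAPS127A minus empty vector) of all 22 member probe sets is plotted with its 95% interval, filled circles for the brightest probe set of a gene and open squares for the others. Red marks the 4 probe sets called higher, blue the 3 called lower and grey those that did not pass; the 3 DUSP6 probe sets all lie left of 0.

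Several members shared their highest array. YAPS127A replicate 3 was the highest of its 5 arrays for 7 of the 10 members (DUSP1, DUSP4, DUSP5, DUSP6, SPRY1, SPRY2 and SPRED2). Among 12221 genes brighter than the median, that array was the highest of its group for 21.6%. Its median signal (5.97) and its actin 3′ to 5′ gap (1.07, beside 0.89 to 1.58 in the other YAPS127A arrays) lay within the range of the others.

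The genes next to each member on its chromosome were summarised too. For each member these were the 50 nearest genes with a signal above the median of all probe sets, 25 to each side. SPRY2 stood in a region that was higher as a whole. Of its 50 neighbours on chromosome 13, 37 were called higher and 3 lower. Their median on each array, relative to the empty vector mean, was 0.00, -0.03, 0.02 and 0.00 with the empty vector. With YAPS127A it was 0.44, 0.39, 0.47, 0.41 and 0.43. The difference of SPRY2 was +0.39 beside +0.43 for these medians, and with the neighbours' median removed on each array it was at -0.04 (SE 0.09, adjusted p = 0.773).

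DUSP5, on chromosome 10, had neighbours higher by 0.16, of which 21 of 50 were called higher and 5 lower. With their median removed DUSP5 was at +0.11 and was no longer called (adjusted p = 0.353). DUSP1 and SPRY4 both lie on chromosome 5, in regions with slightly lower neighbours (-0.11 and -0.14). After the removal DUSP1 was higher by 0.84 (adjusted p = 1.6e-05) at its brightest probe set and its other 2 probe sets were called higher as well, and SPRY4 was at -0.31 (SE 0.07, adjusted p = 0.00639). SPRED1 had neighbours at +0.01 and kept its value (-0.41, adjusted p = 0.0144). DUSP6 had neighbours at -0.01 and differed by -0.18 (adjusted p = 0.0688). The neighbours of DUSP4, DUSP7, SPRY1 and SPRED2 shifted by -0.02 to +0.05, and none of these members was called. Of the 3 members that rose, DUSP1 was the one still called after the removal.

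**Figure D3:**
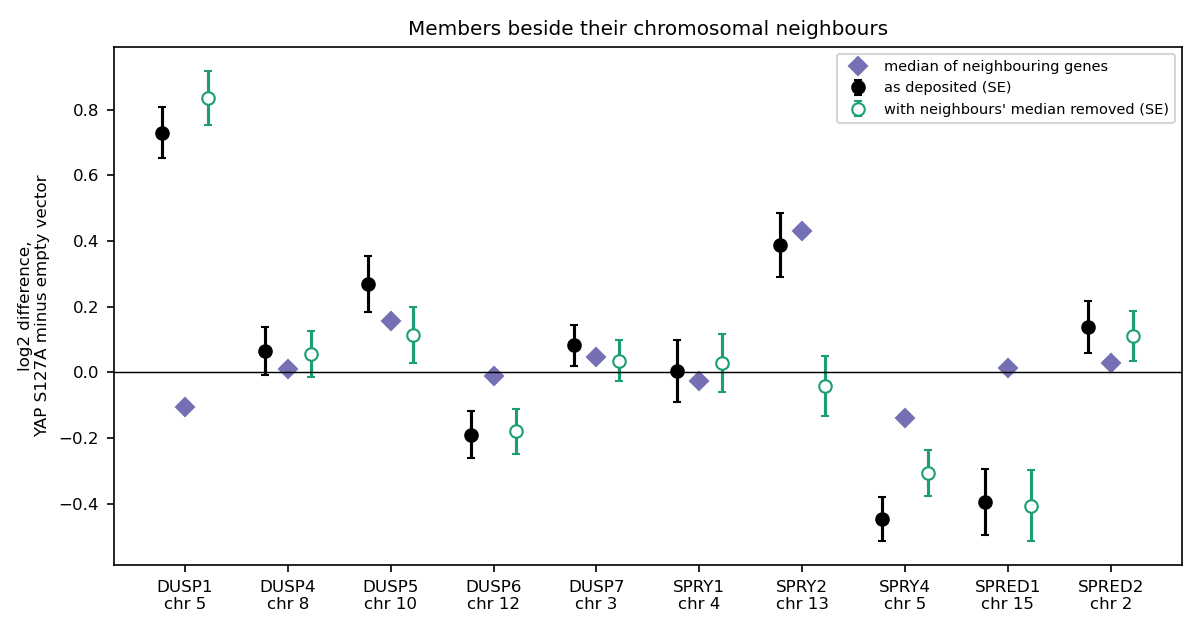
For the brightest probe set of each member, the log2 difference as deposited (black, with SE), the median shift of its 50 neighbouring genes (purple diamonds) and the difference with that shift removed (green, with SE) are plotted by member and chromosome. SPRY2 falls from +0.39 to -0.04 and DUSP5 from +0.27 to +0.11, while DUSP1, SPRY4 and SPRED1 stay away from 0.

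Most other inhibitors of the pathway did not pass. Of 10 further phosphatases and feedback inhibitors, 2 fell, none rose and 8 did not pass (median -0.04). Without dim probe sets 1 of 9 fell and 1 rose, IL17RD, an inhibitor of FGF receptor signalling (+0.18, SE 0.06, adjusted p = 0.039). DUSP10, a phosphatase mainly of p38 and JNK, fell at both probe sets, from a mean of 12.73 (SD 0.05, n = 4) to one of 12.27 (SD 0.20, n = 5) at the brightest, a difference of -0.46 (SE 0.10, adjusted p = 0.00417). Its neighbours on chromosome 1 had a median difference of -0.25, and DUSP10 was at -0.21 relative to them (adjusted p = 0.136). In that setting DUSP16, of the same list, was called lower (-0.26, SE 0.08, adjusted p = 0.0281), so the count stayed at 2. In the main fit DUSP16 did not pass (-0.16, adjusted p = 0.14). SPRY3 had signals near 4 in both groups, below the median of all probe sets (4.31 and 3.97, difference -0.33, adjusted p = 0.0219). Leaving out empty vector replicate 2 or 4, or YAPS127A replicate 4, ended that call (-0.31 to -0.26, adjusted p = 0.0535 to 0.0695), and the count of 2 became 1 in each case.

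Most transcripts of the cascade from adaptors to ERK did not pass. Among the 14 listed genes that the annotation named, 3 were called higher and 1 lower, 10 did not pass, and the median difference was +0.01. KSR1, a scaffold that brings RAF, MEK and ERK together, had signals of 7.05, 7.35, 7.20 and 7.13 with the empty vector and 5.77, 5.78, 5.64, 5.76 and 5.38 with YAPS127A at its brightest probe set. It fell there by 1.52 (SE 0.10, adjusted p = 5.31e-07), but its other 3 probe sets did not pass. The YAPS127A mean of 5.67 lay below the median of all probe sets (5.96), and with no detection calls used here it is not known to be above background, so the size of this fall is uncertain. MAPK3, which encodes ERK1, rose by 0.54 (SE 0.10, adjusted p = 0.00144). Its neighbours on chromosome 16 were higher by 0.34, and relative to them MAPK3 was at +0.19 (adjusted p = 0.149). PEBP1 did not pass in the main fit (+0.19, SE 0.07, adjusted p = 0.0619). It was called higher in several alternatives, among them the removal of the neighbours' median (+0.22, SE 0.07, adjusted p = 0.03).

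MAP2K1, which encodes the kinase MEK1 directly above ERK, rose by 0.21 (SE 0.07, adjusted p = 0.0357). The call of MAP2K1 was lost without empty vector replicate 1, 2 or 4 or YAPS127A replicate 1, 3 or 5 (+0.17 to +0.21, adjusted p = 0.0599 to 0.0874). That call was also lost with the neighbours' median removed (+0.18, adjusted p = 0.0529) and with the replicate block (+0.21, adjusted p = 0.083). NF1, the RAS inhibitor that SPRED1 recruits, had mean signals of 3.77 and 4.00, below the lower quartile of every array (4.24 to 4.27). Its difference of +0.23 (adjusted p = 0.0491) was lost without empty vector replicate 2, 3 or 4 or YAPS127A replicate 2, 3, 4 or 5 (+0.18 to +0.24, adjusted p = 0.0667 to 0.131). Without empty vector replicate 2 or 4 or YAPS127A replicate 3 or 5, 2 genes of this list were called in place of 4.

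Genes known as transcriptional outputs of ERK changed in both directions, with more falls than rises. Of 13 genes, 7 fell, 3 rose and 3 did not pass (median -0.27, beside 0.00 over all genes and +0.07 over the feedback members). ETV1, a transcription factor of the ETS family, fell at all 5 probe sets, from a mean of 8.32 (SD 0.08, n = 4) to one of 6.98 (SD 0.20, n = 5) at the brightest (-1.34, SE 0.10, adjusted p = 1.93e-06). EPHA4, an ephrin receptor, fell at 4 of 5 probe sets, with -1.07 at the brightest (SE 0.14, adjusted p = 0.000182). The immediate-early genes IER3 (-0.53, SE 0.07, adjusted p = 0.000156) and EGR1 (-0.54, SE 0.07, adjusted p = 0.000237) fell as well. The 3 output genes that rose were HBEGF, a ligand of the EGF receptor (+0.38, SE 0.07, adjusted p = 0.00287), PHLDA1 (+0.33, SE 0.06, adjusted p = 0.00118) and ETV5, of the same ETS subfamily as ETV1 (+0.26, SE 0.05, adjusted p = 0.00414). Counts of called genes were 10 of 13 in this list, 4 of 14 in the cascade and 2 of 10 among the further inhibitors, beside 28.7% of all genes and 40.7% of bright genes.

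**Figure D4:**
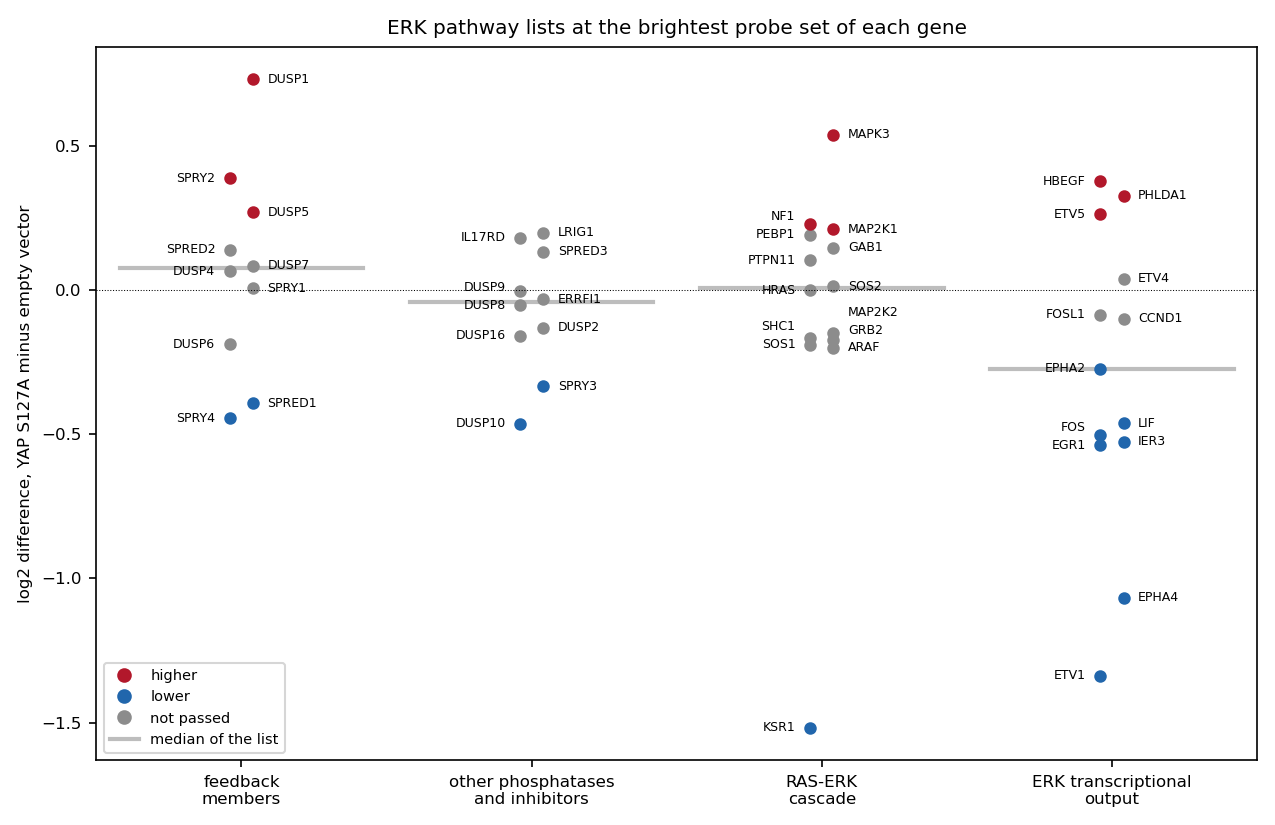
The log2 difference (YAPS127A minus empty vector) of each gene at its brightest probe set is plotted for the 10 feedback members, 10 other phosphatases and inhibitors, 14 cascade genes and 13 genes of the ERK output, with grey bars at the list medians of +0.07, -0.04, +0.01 and -0.27. The largest differences are falls of KSR1, ETV1 and EPHA4, and DUSP1 is the highest gene of the 4 lists.

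By the root mean square distance over the 9 arrays, the genes whose array values were nearest to those of DUSP1, after each gene's empty vector mean was subtracted, were SUV39H2 (distance 0.05), GTPBP4 (0.05) and TMEM45A (0.07), out of 12220 bright genes. They differed by +0.71, +0.73 and +0.80. SUV39H2 and GTPBP4 lie on chromosome 10 in regions whose neighbours were higher by 0.62 and 0.49, whereas TMEM45A, on chromosome 3, had neighbours at 0.00 and DUSP1 had neighbours at -0.11.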

How the data were processed

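Per the labels' protocols, total RNA of HuCCT1 was amplified as cDNA, labelled with biotin and read on 9 arrays of 1 colour. The authors deposited 1 value per probe set, taken to be log2 signal from its range, since no header states the unit. How the authors normalized and summarised the probes is not given here in any label or header. No scaling was added. There were 0 columns of other samples.

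Without the 62 control probe sets, 54613 remained and were fitted in limma 3.58.1 (R 4.3.3; lmFit and eBayes, no covariate, 11.4 total degrees of freedom), with the Benjamini-Hochberg adjustment taken over all of them. Errors are SEs for log2 differences and SDs for levels. A platform annotation named 1 gene for 41091 probe sets, and gene IDs gave current symbols from RefSeq (GRCh38.p14), whose gene order also gave the neighbours. The probe set with the highest mean over the 9 arrays stood for its gene. Exact permutation tests were 2-sided. Plots used Python 3.11.15 and matplotlib 3.10.9. The fit was tested on simulated data.

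Members and lists were chosen with earlier results of these data known. All member probe sets are named. From each other list the rule names every called gene where 4 or fewer were called and otherwise the 4 with the lowest p-values, and it names the 3 genes nearest to the member with the largest difference. Named outside the rule, after their values were seen, were the markers, HBEGF, PHLDA1, ETV5, IL17RD, DUSP16 and PEBP1. The alternatives were quantile normalization, median centring, leaving out dim probe sets, trend and robust eBayes, array weights, a replicate block, the actin gap as a covariate, removal of the neighbours' median (41009 probe sets with a position), the mean over probe sets and each array left out in turn. The planned pseudocount did not apply to log2 values.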

Additional observations from a re-analysis of the deposited data

Results flagged for a closer look

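Within a group, 1 array stood apart from the others by Dixon's ratio in 5 of 66 groups tested, of which chance flags about 1 in 20. For SPRY4, YAPS127A replicate 2 was at 10.27, above the other 4 (10.07 to 10.11), and so nearer to the empty vector arrays. For SPRED1 at 244439_at, YAPS127A replicate 1 was at 7.35, below the others (7.98 to 8.13). For SPRED2 at its brightest probe set, YAPS127A replicate 3 was at 11.14, above the others (10.78 to 10.89). For MAP2K1, empty vector replicate 3 was at 11.93, above the others (11.84 in each case). For ETV1, empty vector replicate 1 was at 8.44, above the others (8.26 to 8.29).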

How the results depend on the processing

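DUSP1, SPRY4 and SPRED1 kept their direction and call in all 9 alternatives and in all 9 fits that left out an array (0.70 to 0.77, -0.48 to -0.41 and -0.44 to -0.34), and DUSP4, DUSP7 and SPRED2 stayed uncalled. The call of DUSP5 was lost with the replicate block (0.26, adjusted p = 0.0854, as it was without YAPS127A replicate 5 and no block, adjusted p = 0.0806), the actin covariate (0.27) and the neighbours' median removed (0.11), and it ran from 0.20 to 0.30 without single arrays. DUSP6 was called without dim probe sets (-0.19, adjusted p = 0.04, where fewer probe sets are adjusted over), with trend and robust eBayes (-0.19, adjusted p = 0.0286) and averaged over its 3 probe sets (-0.24), and ran from -0.23 to -0.16 without single arrays. SPRY2 turned to -0.042 with the neighbours' median removed. SPRY1, at 0.00, took the other sign with quantile normalization (-0.0097), median centring (-0.00037), array weights (-0.00039), the replicate block (-0.039), the actin covariate (-0.025) and the mean over probe sets (-0.0012), and ran from -0.050 to 0.050 without single arrays; it was called in none. With the replicate block 2 cascade genes and 1 further inhibitor were called; without single arrays 2 to 4 and 1 to 2 were. The count of member probe sets was 6 to 10 in all settings. The values gave no sign that the replicate numbers pair the samples. The correlations of same-numbered deviations were -0.25, 0.04, 0.01 and 0.03. No empty vector array correlated best with the YAPS127A array of its own number. The block also takes out YAPS127A replicate 5, which has no partner, so its differences equal those without that array. It gave 10306 calls over all probe sets, against 11755 without that array and 13052 with all arrays.

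The number of arrays limits the precision: among the 5 members that did not pass, the 95% intervals at the brightest probe set reach at most 0.34 in size (DUSP6, -0.34).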
